A study of Mus musculus with 6 samples.

Results

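The 10 genes described here encode the ligands of transforming growth factor beta (TGF-β), Tgfb1, Tgfb2 and Tgfb3, their receptors, Tgfbr1, Tgfbr2 and Tgfbr3, and the latent TGF-β binding proteins, Ltbp1, Ltbp2, Ltbp3 and Ltbp4. They were picked by symbol as the members of this pathway step, by a rule that uses no measured value, and all 10 were found among the 55335 genes of the count table and among the 16612 genes with enough reads to be tested. RNA-seq of bulk aorta was performed on 6 wild-type (WT) mice of the C57BL/6 strain, 3 young mice aged 6 weeks and 3 aged mice aged 6 months, with 1 library per mouse and no treatment named. The study's methods describe all of the mice as male and state that the fat around the vessel was dissected. A whole vessel mixes smooth muscle cells, fibroblasts, endothelial cells and others, so fewer cells of a type and less RNA per cell cannot be told apart in any value below.

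TGF-β is secreted in a latent form, in which the mature dimer stays wrapped in its own propeptide, the latency-associated peptide. In most cells that peptide is linked to a latent TGF-β binding protein, which anchors the complex on fibrillin microfibrils of the extracellular matrix until integrins or proteases release the ligand. The free ligand binds TGFBR2, which recruits and phosphorylates TGFBR1, and TGFBR1 then phosphorylates the transcription factors SMAD2 and SMAD3. In the aorta the pathway acts on smooth muscle differentiation and matrix synthesis, and inherited mutations in several of these genes cause aneurysm of the human aorta.

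The ligands differ in how integrins can release them, which can be read from their coding sequences. Integrins of the αv family grip an arginine-glycine-aspartate motif in the latency-associated peptide. The stretches around the codons for this motif are shown because they set Tgfb1 and Tgfb3 apart from Tgfb2, and the capitals mark the codons of the motif (coding strand, 5′ to 3′, GRCm38 with the GENCODE M21 annotation).
Tgfb1: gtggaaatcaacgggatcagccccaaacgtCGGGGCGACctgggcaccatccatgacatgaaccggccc
Tgfb3: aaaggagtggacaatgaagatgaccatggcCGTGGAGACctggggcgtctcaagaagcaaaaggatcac
In Tgfb1 the motif starts at codon 244 of 390, and the stretch lies in coding exons on both sides of an intron at chr7:25696983-25697180 on the plus strand. In Tgfb3 it starts at codon 261 of 412, and the stretch also crosses an intron, at chr12:86062135-86063824 on the minus strand. The 442 codons of Tgfb2 held 0 such motifs in frame.

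The libraries held between 31049632 and 45832185 counts assigned to genes, and the lowest count of any of the 10 genes in any library was 823, for Tgfb1 in aged replicate 2. Smooth muscle markers were abundant in every library, with a sum of 8 markers including Myh11 and Acta2 of 33406 to 41711 CPM (counts relative to library size, with libraries scaled by the trimmed mean of M values) in young and 28975 to 34276 CPM in aged aorta. A pair of libraries stood apart. Young replicate 1 had 305.6 CPM of Xist, the RNA that silences an X chromosome in female cells, against at most 0.636 CPM in the other 5, which goes against the stated sex. Its clock genes Dbp and Arntl and its summed cardiac muscle markers (358 CPM against 82.6 to 96.4 CPM) also lay outside the range of the others. Aged replicate 2 lay with the young libraries on the first principal component (-22.8, against -31.3 to -13.7 in young and 42.7 and 48.7 in the other aged libraries). Leaving out aged replicate 2 raised the number of genes called by edgeR to 110 (0.642%), and leaving out young replicate 1, alone or together with it, left 0. Aged replicate 2 was singled out by these same counts, as the aged library that lay with the young ones. Larger differences without it are therefore no added support, here or for the single genes below. Of the 16612 genes tested, 0 (0%) passed an adjusted p of 0.05 by the edgeR quasi-likelihood test with Benjamini-Hochberg adjustment, 1723 (10.4%) had an unadjusted p under 0.05, and DESeq2 called 338 of 14955 (2.26%).

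The comparison of aged with young aorta asks how the expression of this machinery differs between 6 weeks and 6 months of age. None of the 10 genes was called by edgeR, DESeq2 or limma, which is 0 of 10 beside the background of 0% in edgeR. In edgeR 5 were higher and 5 lower in aged aorta, beside 47.9% lower over all genes tested, and the median log2 fold change was 0.05 against 0.02 for all genes. By limma on log2(FPKM + 1), a scale on which the median of all genes was -0.12, 3 were higher and 7 lower, and the genes that turned were Tgfb3 and Ltbp1. Without aged replicate 2, edgeR had 8 higher and 2 lower, and without young replicate 1 and aged replicate 2 it had 6 and 4.

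Ltbp3 was the 1 gene of the 10 with an unadjusted p under 0.05 in edgeR, a share close to the 10.4% of all genes (4.82% lower and 5.56% higher), and its unadjusted p was above 0.05 without any 1 library, with no filter on low counts and with the replicate block. It was also the 1 gene whose aged and young libraries did not overlap, where 16.5% of all genes tested were separated, 8.78% with the aged libraries lower and 7.74% with them higher. Without young replicate 1, 2 of the 10 genes were separated (Tgfb2 and Ltbp3) beside 33% of all genes, and without aged replicate 2, 3 were (Tgfb1, Tgfbr2 and Ltbp3) beside 32.9%. Without both libraries 4 of the 10 were separated (Tgfb1, Tgfb2, Tgfbr2 and Ltbp3) beside 51.5% of all genes. With only 10 genes, these counts do not set the genes apart from all genes tested.

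**Figure D1:**
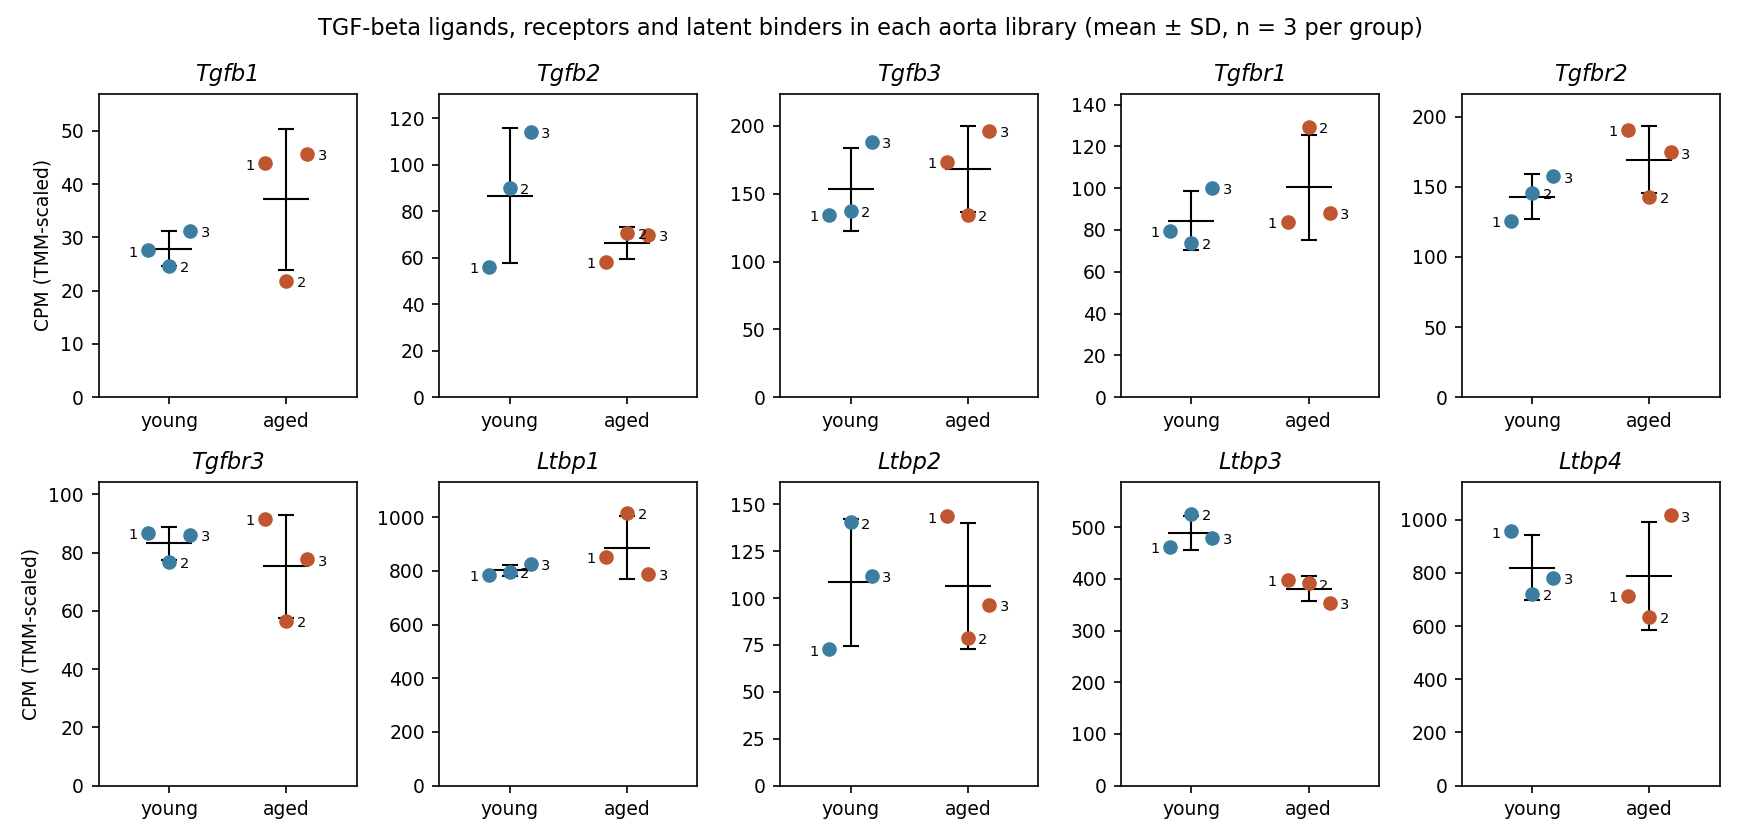
CPM of each of the 10 genes in every library, with 1 point per mouse and the mean and SD of each group (n = 3 young and 3 aged). Ltbp3 is the gene whose 3 aged points, 353 to 399 CPM, all lie below its 3 young points, 462 to 526 CPM.

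Tgfb3 was by length the most abundant ligand, and none of the 3 ligands passed the test. Tgfb1 (ENSMUSG00000002603, chr7:25687002-25705077, plus strand), the ligand best known for fibrosis and immune control, was at 27.6, 24.7 and 31.3 CPM in young and 43.9, 21.8 and 45.7 CPM in aged aorta. Aged replicates 1 and 3 were above every young library, while aged replicate 2 was below all of them. The mean was 27.9 ± 3.30 CPM in young and 37.1 ± 13.3 CPM in aged (SD, n = 3 each). In edgeR the log2 difference was 0.41 ± 0.29 (SE, 95% interval -0.26 to 1.09, edgeR adjusted p = 0.635). Without aged replicate 2 the log2 fold change was 0.69 (edgeR adjusted p = 0.171), and without that library and young replicate 1 it was 0.68 (edgeR adjusted p = 0.211). Without aged replicate 3 it was 0.24.

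The libraries with the most Tgfb1 also had the most RNA of 2 lists of markers of other cell types. The summed CPM of 8 fibroblast markers, among them Col1a1 and Dcn, was 1999 to 3100 in young libraries and 7438, 1884 and 5453 in aged replicates 1, 2 and 3. The summed CPM of 9 macrophage markers such as Lyz2 and C1qa was 96.2 to 129.7 in young and 436, 136 and 289 in aged. In both lists aged replicates 1 and 3 were above every young library, as for Tgfb1. In aged replicate 2 the fibroblast sum was below every young library and the macrophage sum just above them. Of both lists, 0 markers were at 0 counts throughout. The part of these cells in the Tgfb1 values was not tested.

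Tgfb2 (ENSMUSG00000039239, chr1:186622792-186705989, minus strand), whose loss of function causes a human aneurysm syndrome, was at 56.0, 89.9 and 114 CPM in young and 58.3, 70.7 and 69.6 CPM in aged aorta. Young replicate 1 was the lowest of the 6 libraries, and the other young libraries were above all aged ones. Aged over young, the log2 fold change was -0.39 ± 0.26 (SE, 95% interval -1.001 to 0.23, edgeR adjusted p = 0.629). Without young replicate 1 and aged replicate 2 it was -0.67 (edgeR adjusted p = 0.228), and without young replicate 3, the highest library, it was -0.13.

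Tgfb3 (ENSMUSG00000021253, chr12:86056745-86079041, minus strand), also a gene of inherited aortic disease, was at 134, 137 and 188 CPM in young and 174, 134 and 197 CPM in aged aorta. The groups overlapped over most of their range, and the library-to-library SD was about the same, 30.5 CPM in young and 31.6 CPM in aged. For Tgfb3 the log2 fold change was 0.13 ± 0.21 (SE, 95% interval -0.37 to 0.63, edgeR adjusted p = 0.840), and by limma on log2(FPKM + 1) it was -0.08, or 0.03 above the median of all genes. In edgeR it was 0.27 without aged replicate 2, 0.06 without young replicate 1 and 0.01 without aged replicate 3.

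None of the 3 receptors passed the test. Tgfbr1 (ENSMUSG00000007613, chr4:47353222-47414931, plus strand), the type I receptor kinase, was at 79.5, 73.8 and 100.3 CPM in young and 83.7, 129 and 88.3 CPM in aged aorta. Aged replicate 2 was the highest library, and the other aged libraries lay inside the young range. In edgeR the log2 fold change was 0.25 ± 0.22 (SE, 95% interval -0.27 to 0.77, edgeR adjusted p = 0.705), and it was 0.03 without aged replicate 2 and -0.01 without that library and young replicate 1. The summed CPM of 10 adipocyte markers was highest in aged replicate 2, with 4623 CPM, and 1085 to 2681 CPM elsewhere. Among the young libraries the order was the reverse. Young replicate 2 had the most of these markers, 2681 CPM, with the lowest Tgfbr1, and young replicate 3 the least, 1085 CPM, with the highest Tgfbr1. The part of these markers' cells in the Tgfbr1 values was not tested.

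Tgfbr2 (ENSMUSG00000032440, chr9:116084293-116175360, minus strand), the type II kinase that binds the ligand first, was at 126, 146 and 157 CPM in young and 190.4, 143 and 175 CPM in aged aorta. Aged replicates 1 and 3 were above every young library, and aged replicate 2 fell within the young range. Between the groups the log2 fold change was 0.24 ± 0.17 (SE, 95% interval -0.16 to 0.65, edgeR adjusted p = 0.642), and without aged replicate 2 it was 0.35 (edgeR adjusted p = 0.408). It was lowest, 0.15, without aged replicate 1.

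Tgfbr3 (ENSMUSG00000029287, chr5:107106570-107289629, minus strand) encodes betaglycan, a co-receptor without kinase activity that presents ligand, TGF-β2 above all, to the type II receptor. Its level was 86.8, 76.7 and 86.2 CPM in young and 91.6, 56.5 and 77.6 CPM in aged aorta. The aged libraries spread to both sides of the young ones, with aged replicate 2 the lowest. Its log2 fold change was -0.14 ± 0.20 (SE, 95% interval -0.62 to 0.33, edgeR adjusted p = 0.815), and it ranged from -0.31 without aged replicate 1 to 0.03 without aged replicate 2.

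Of the 4 latent binding proteins, Ltbp3 was lower in every aged library and missed the adjusted threshold, and the other 3 overlapped between the ages. Ltbp3 (ENSMUSG00000024940, chr19:5740904-5758532, plus strand), which carries latent TGF-β and is known for its part in bone and tooth growth, was at 462, 526 and 479 CPM in young and 399, 391 and 353 CPM in aged aorta. The lowest young library was above the highest aged library. The means were 489 ± 33.1 and 381 ± 24.3 CPM (SD, n = 3 each), so aged aorta held 0.780 of the young level. The log2 fold change was -0.36 ± 0.15 (SE, 95% interval -0.71 to -0.01), with an adjusted p of 0.470 in edgeR and 0.319 in DESeq2.

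With 1 library left out the log2 fold change of Ltbp3 ranged from -0.39 to -0.29. Its separation was present without any 1 library and without young replicate 1 and aged replicate 2 together. Groups that do not overlap stay separated when libraries are left out, apart from changes in scaling, so this adds no support. The summed smooth muscle markers overlapped between the ages, while all 8 had negative log2 fold changes beside 47.9% of all genes, 3 of them with an unadjusted p under 0.05 beside 4.82% of all genes that were lower, and 0 were at 0 counts throughout. The part of smooth muscle content in the Ltbp3 value was not tested. Mitochondrial genes took a larger share of counts in every aged library, 23.1% to 30.4% against 14.9% to 21.2%. With those genes left out the log2 fold change of Ltbp3 was -0.36, as with them. Leaving them out hardly changes the scaled values of other genes, so the separation of Ltbp3 in that fit adds no support. The part of the mitochondrial share in the Ltbp3 value was not tested.

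Ltbp1 (ENSMUSG00000001870, chr17:75005568-75392512, plus strand), the prototype of the latent TGF-β carriers in the matrix, was at 786, 796 and 826 CPM in young and 851, 1015 and 789 CPM in aged aorta. The young libraries had a coefficient of variation of 2.60%, while aged replicate 2 was the highest library and aged replicate 3 fell inside the young range. Its log2 fold change was 0.14 ± 0.16 (SE, 95% interval -0.24 to 0.52, edgeR adjusted p = 0.773), and by limma on log2(FPKM + 1) it was -0.09, or 0.03 above the median of all genes. In edgeR it was 0.03 without aged replicate 2 and 0.02 without that library and young replicate 1.

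Ltbp4 (ENSMUSG00000040488, chr7:27305136-27337692, minus strand), needed for elastic fibre assembly through fibulin-5, was at 957, 721 and 783 CPM in young and 714, 635 and 1017 CPM in aged aorta. The highest and the lowest library were both aged. In edgeR the log2 fold change was -0.06 ± 0.23 (SE, 95% interval -0.59 to 0.48, edgeR adjusted p = 0.944), and it was 0.21 without young replicate 1 and aged replicate 2 and -0.28 without aged replicate 3.

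Ltbp2 (ENSMUSG00000002020, chr12:84783212-84876532, minus strand), which sits on microfibrils but does not carry latent TGF-β, was at 72.6, 140.4 and 112 CPM in young and 144, 78.8 and 96.4 CPM in aged aorta. The groups overlapped almost entirely. Ltbp2 had a log2 fold change of -0.03 ± 0.31 (SE, 95% interval -0.75 to 0.69, edgeR adjusted p = 0.981), with the widest interval of the 4 binding proteins, and it ranged from -0.30 without aged replicate 1 to 0.21 without young replicate 2. It shares 764 exon bases with the antisense transcript D030025P21Rik, whose counts were 0.581% of those of Ltbp2.

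**Figure D2:**
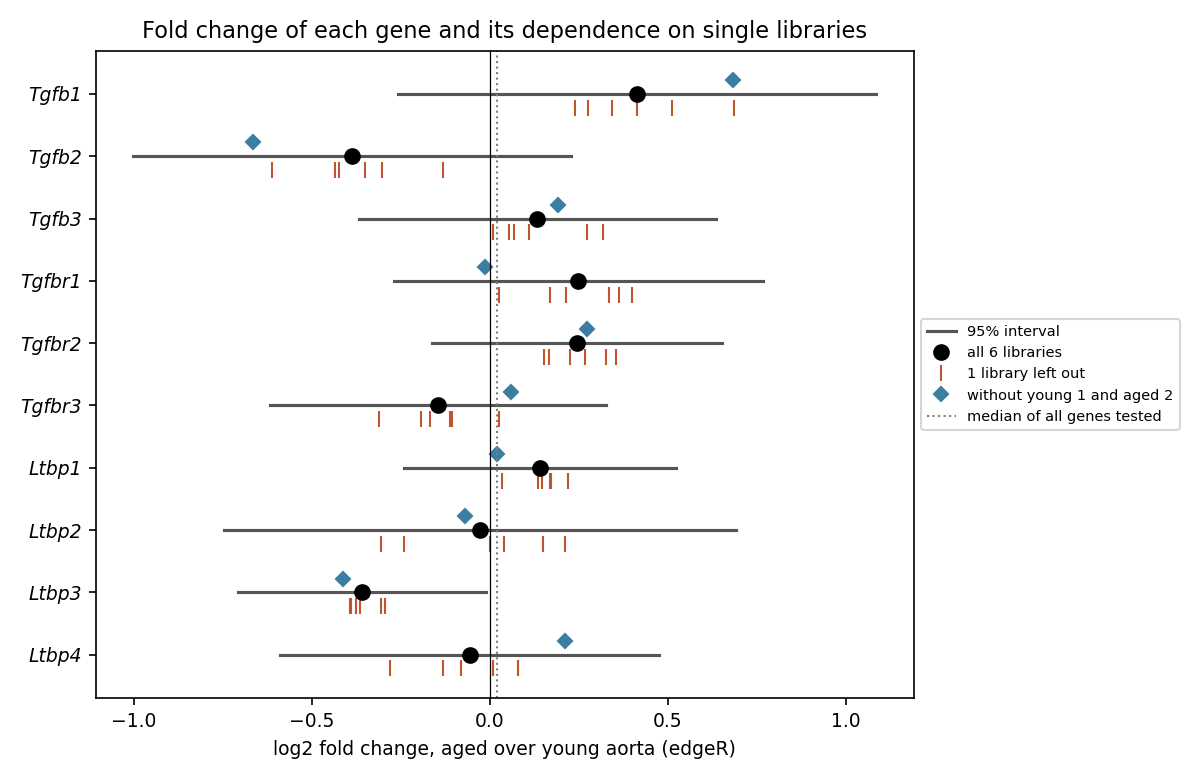
Log2 fold change of aged over young aorta for the 10 genes with the 95% interval of the edgeR fit (n = 3 young and 3 aged mice), with ticks for each left-out library, diamonds for the fit without young replicate 1 and aged replicate 2, and a dotted line at the median of all genes. The interval of Ltbp3, -0.71 to -0.01, ends just below 0, and the other 9 intervals include 0.

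Levels were compared between genes in FPKM, which divides by gene length. Ltbp4 was the most abundant with 113 ± 21.2 FPKM (mean ± SD over all 6 libraries), followed by Ltbp1 with 71.5 ± 7.57 FPKM. Both steps at the top held in all 6 libraries, Ltbp4 above Ltbp1 and Ltbp1 above Ltbp3, with ranges that did not overlap. Ltbp3 with 44.0 ± 10.1 FPKM and Tgfb3 with 42.9 ± 7.68 FPKM were not separable, since Ltbp3 was the higher in 3 of 6 libraries. Tgfb3 exceeded the next gene, Tgfbr2 with 17.2 ± 2.13 FPKM, in every library and by 2.50-fold in the mean.

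Below that step the genes lay close together. Tgfbr1 (12.8 ± 2.64 FPKM), Tgfb2 (12.1 ± 4.37 FPKM), Ltbp2 (12.0 ± 3.68 FPKM) and Tgfbr3 (11.0 ± 2.16 FPKM) overlapped in range, each above the next in 4 of 6 libraries. Tgfb1 was the least abundant of the 10 with 5.77 ± 1.47 FPKM, below Tgfbr3 in all 6 libraries.

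Within the ligands, Tgfb3 made up 66.5% to 73.4% of the summed FPKM in every library. The share of Tgfb2, the ligand without the motif shown above, was 17.6%, 25.4% and 24.1% in young and 14.3%, 21.7% and 15.2% in aged aorta. The share of Tgfb1 was 9.99%, 8.04% and 7.60% in young and 12.4%, 7.69% and 11.4% in aged aorta. Both shares overlapped between the ages, with aged replicate 2 placed among the young libraries. The ligands with the motif, Tgfb1 and Tgfb3 together, accounted for 74.6% to 82.4% of ligand FPKM in young and 78.3% to 85.7% in aged aorta.

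Within the receptors, Tgfbr2 held 37.6% to 46.4% of the summed FPKM. The share of Tgfbr1 was 43.1% in aged replicate 2 and 25.6% to 32.1% in the other 5 libraries, and Tgfbr3 was at its lowest, 18.8%, in that same library. The FPKM ratio of Tgfbr2 to Tgfbr1 was 1.26, 1.57 and 1.25 in young and 1.82, 0.884 and 1.58 in aged aorta, so aged replicate 2 was the 1 library in which the type I receptor was the more abundant.

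Within the latent binding proteins, Ltbp4 held 40.0% to 55.8% and Ltbp1 26.1% to 38.6% of the summed FPKM, and Ltbp2 held at most 6.97%. The share of Ltbp3 was 18.1%, 22.2% and 19.9% in young and 17.5%, 17.5% and 13.8% in aged aorta. All 3 aged libraries were below all 3 young ones in this share, by a narrow margin. The share uses the same Ltbp3 values as above, so it adds no support. The FPKM ratio of Ltbp1 to Ltbp3, which does not depend on library scaling and was picked after the values had been seen, was 1.44, 1.28 and 1.46 in young and 1.81, 2.20 and 1.89 in aged aorta. Its means were 1.40 ± 0.0983 and 1.97 ± 0.205 (SD, n = 3 each), and the groups did not overlap. The ratio also reuses the Ltbp3 values, and no share over other pairs of genes was computed.

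**Figure D3:**
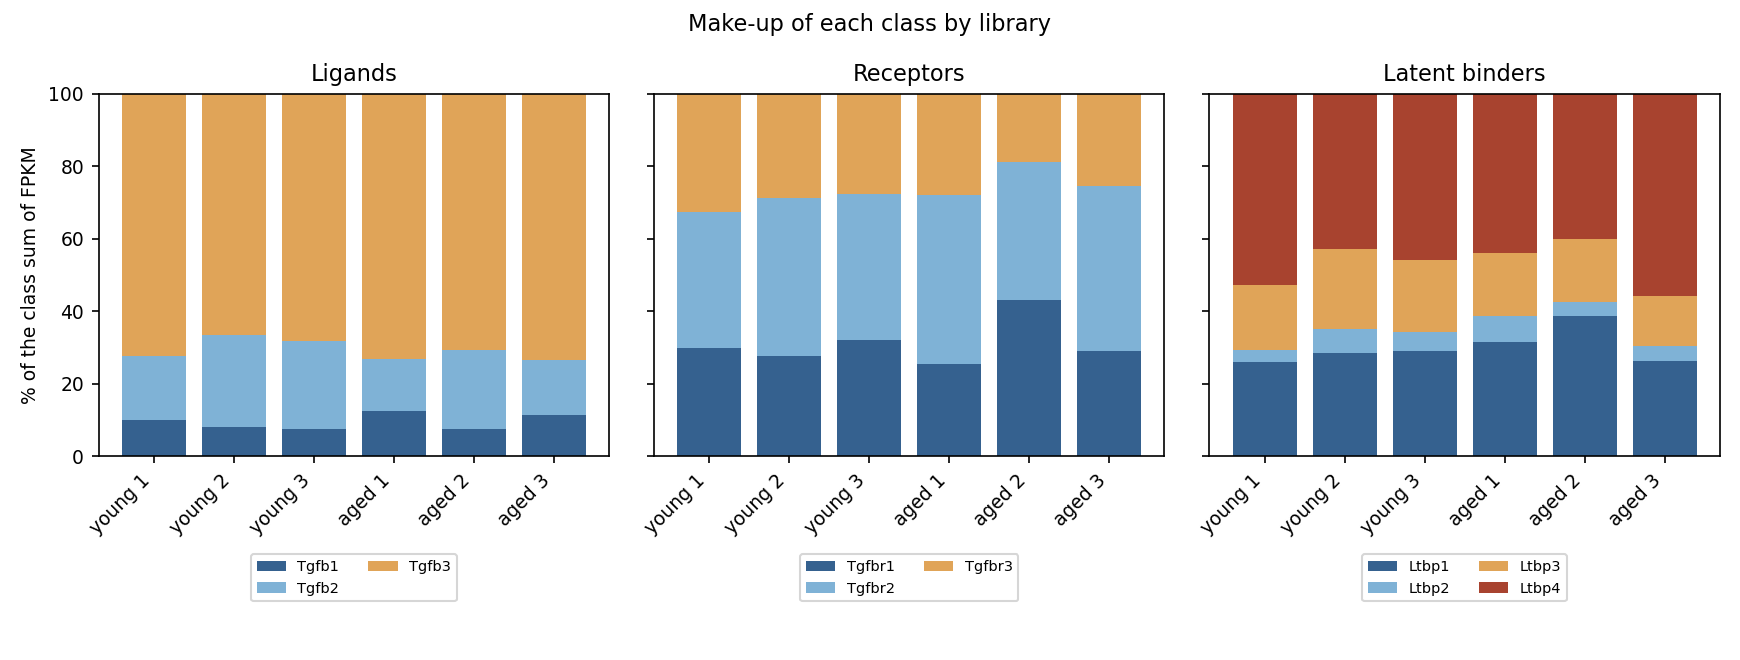
Share of summed FPKM, in percent, of each gene within the ligands, the receptors and the latent binding proteins, with 1 bar per library. Tgfb3 takes 66.5% to 73.4% of ligand FPKM in every library, and aged replicate 2 differs from the others in the receptors, with 43.1% for Tgfbr1.

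The genes whose pattern over the 6 libraries was most like that of the most abundant ligand, receptor and binding protein were found by the root mean square (RMS) difference of centred log2 CPM among 14075 genes. For Tgfb3 they were Spout1 (RMS difference 0.0701), Prkd2 (0.0739) and Rtkn (0.0750). For Tgfbr2 they were Hras (0.0322), Ccdc25 (0.0468) and P3h3 (0.0499), and for Ltbp4 they were Pcdhga12 (0.0628), Polr3b (0.0726) and Trim37 (0.0752). Among the 10 genes themselves the closest pairs were Tgfb3 with Tgfbr2 (0.148) and Tgfbr1 with Ltbp1 (0.163), and the farthest was Tgfb1 with Tgfb2 (0.588). These distances describe 6 libraries that share their depth and tissue composition, and they carry no test.

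**Figure D4:**
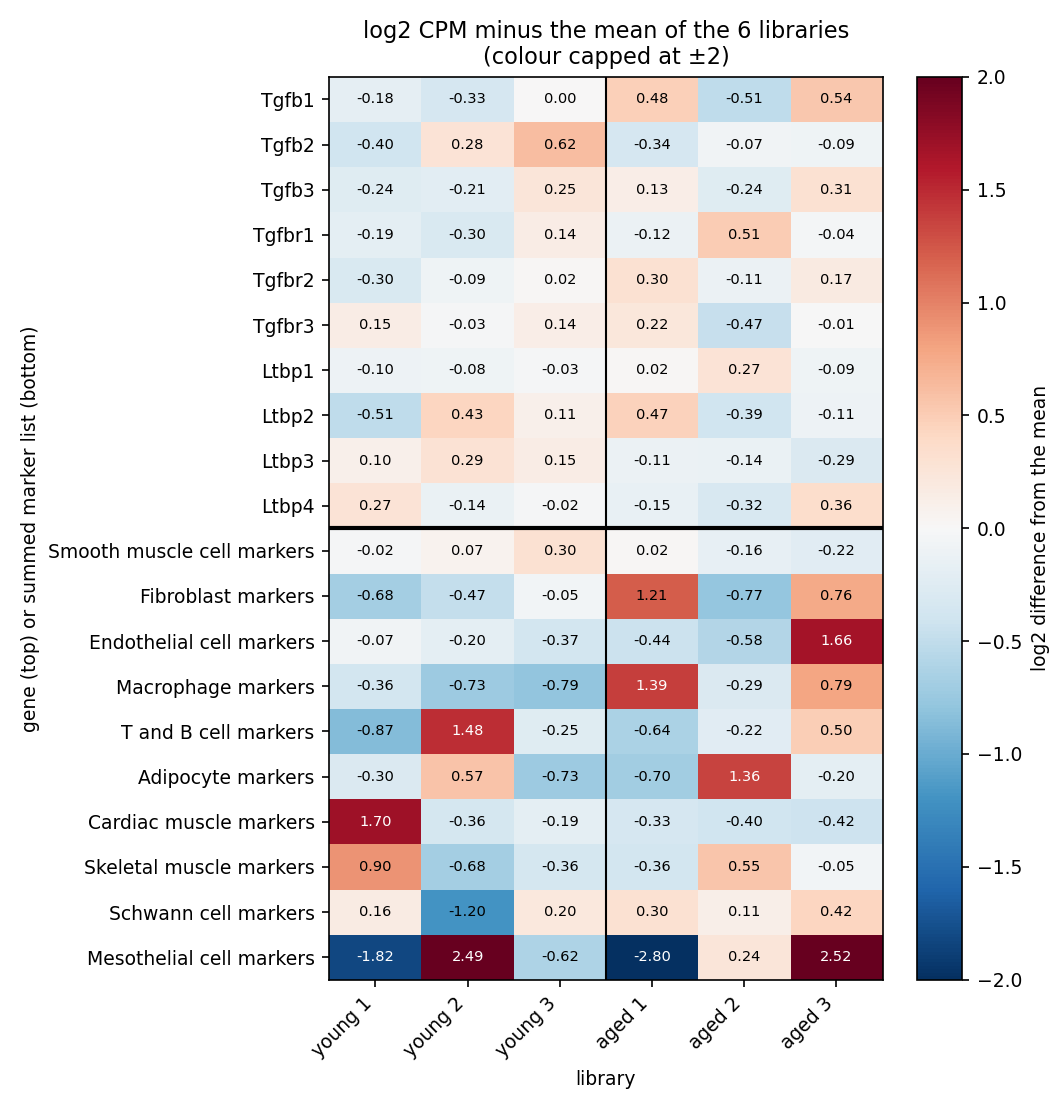
Log2 CPM of the 10 genes in each of the 6 libraries, centred on the mean of each gene, above the summed CPM of 10 lists of cell type markers shown the same way. Aged replicate 2 differs from the other aged libraries in several genes, with Tgfb1 low at 21.8 CPM and Tgfbr1 high at 129 CPM, while Ltbp3 is low in all 3 aged libraries.

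The wider pathway was followed through 5 lists, covering matrix storage and activation, other receptors of the superfamily, Smads and partners, feedback inhibitors, and known targets. None of their genes passed the adjusted threshold in edgeR, and the counts at an unadjusted p are given with each list. Itgb3, Acvrl1, Smad9, Skil and Eln were named for the smallest unadjusted p in their lists, outside the 2 most abundant genes. Their low p and separated groups are therefore no added support, and 16.5% of all genes tested were separated. Of the 18 tested genes of storage and activation, 9 were higher and 9 lower in aged aorta, and at an unadjusted p under 0.05 there were 2 higher and 1 lower, beside 10.4% of all genes. Biglycan (Bgn), a proteoglycan of the vessel wall that binds TGF-β, was the most abundant of the list with 4947 ± 276 CPM in young and 5708 ± 614 CPM in aged aorta (log2 fold change 0.21). Fbn2 and Itgb6 were too low to be tested.

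Decorin (Dcn), a proteoglycan that sequesters TGF-β and a marker of fibroblasts, was at 502, 549 and 839 CPM in young and 2594, 548 and 2018 CPM in aged aorta. Aged replicates 1 and 3 were far above every other library, and they were also the highest for Tgfb1. The log2 fold change was 1.45 ± 0.53 (SE, edgeR adjusted p = 0.436), and without aged replicate 2 it was 1.87 with an edgeR adjusted p of 0.0488. That call was lost without young replicate 1 as well (log2 fold change 1.74, edgeR adjusted p = 0.0889). Itgb3, the β3 subunit of an αv integrin that grips the motif shown above, was at 187, 124 and 163 CPM in young and 92.8, 114 and 106 CPM in aged aorta. All 3 aged libraries were below the young ones, with a log2 fold change of -0.60 ± 0.19 (SE, edgeR adjusted p = 0.400).

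Among the 11 other receptors, 7 were higher and 4 lower with age (median log2 fold change 0.18), and Acvrl1 was the 1 gene with an unadjusted p under 0.05, where 10.4% of all genes had one. Acvrl1 (ALK1), a type I receptor best known from endothelial cells, was at 56.3, 38.5 and 58.3 CPM in young and 85.0, 62.5 and 109.6 CPM in aged aorta. The groups did not overlap, and the log2 fold change was 0.75 ± 0.26 (SE, edgeR adjusted p = 0.415). Its partner endoglin (Eng) had a log2 fold change of 0.50 (edgeR adjusted p = 0.511), and Bmpr1a, a receptor of bone morphogenetic proteins, one of -0.20. The summed CPM of 8 endothelial markers was 430 to 528 in young and 410, 370 and 1757 in aged replicates 1, 2 and 3, so aged replicate 3, the highest library for Acvrl1, stood apart in these markers, and their part in the Acvrl1 value was not tested.

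Of the 8 Smads and partners, 5 were higher and 3 lower, and Smad9, a mediator of bone morphogenetic protein signals, was the 1 gene with an unadjusted p under 0.05, again beside 10.4% of all genes (log2 fold change -0.76, edgeR adjusted p = 0.448). Without young replicate 1 the log2 fold change of Smad9 was -0.43 and its unadjusted p was above 0.05. Smad3, the mediator downstream of Tgfbr1, had a log2 fold change of 0.21, and Smad4, the shared partner, one of 0.17, which were 0.37 and 0.30 without aged replicate 2. Of the 14 feedback inhibitors, 6 were higher and 8 lower and 0 had an unadjusted p under 0.05, beside 10.4% of all genes. Pmepa1, a membrane inhibitor of Smad signalling, had a log2 fold change of 0.12. Ski, a repressor of Smad-driven transcription, was lower in all 3 aged libraries than in any young one (log2 fold change -0.33, edgeR adjusted p = 0.501). Its relative Skil had a log2 fold change of 1.37 (edgeR adjusted p = 0.484) that rested on 49.0 CPM in aged replicate 1 against at most 14.7 CPM elsewhere.

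Of the 23 known targets, 10 were higher and 13 lower with age (median log2 fold change -0.05), and 2 higher and 1 lower had an unadjusted p under 0.05, beside 5.56% and 4.82% of all genes. Elastin (Eln), the core of the elastic fibre, was at 5279, 5001 and 4835 CPM in young and 2210, 3335 and 2357 CPM in aged aorta. Every aged library was below every young one, as for 8.78% of all genes tested. The log2 fold change was -0.94 ± 0.21 (SE), with an adjusted p of 0.372 in edgeR and 0.00709 in DESeq2, which called 2.26% of all genes. The contractile genes Acta2 and Tagln, classic TGF-β targets of smooth muscle, had log2 fold changes of -0.19 and -0.01.

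**Figure D5:**
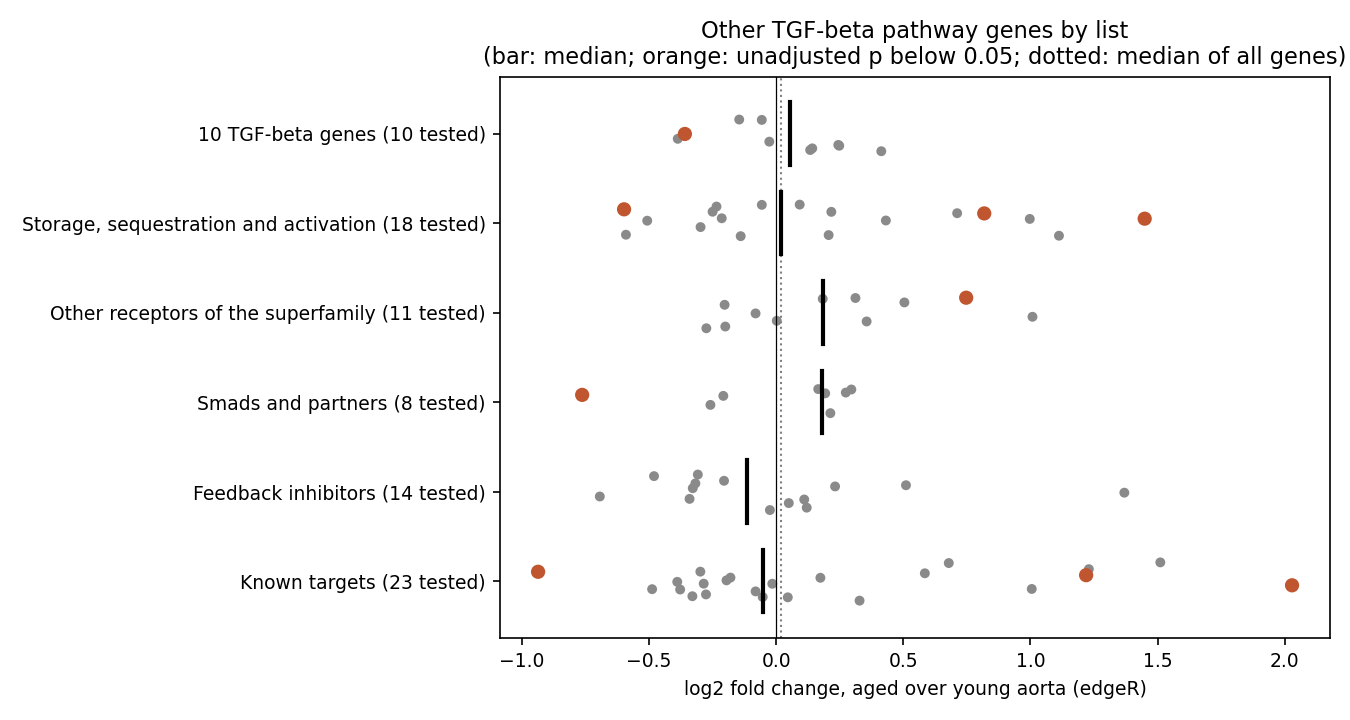
Log2 fold change of aged over young aorta for the 10 genes and each tested gene of the 5 pathway lists, with 1 point per gene, orange where the unadjusted p was under 0.05, a bar at the median of each list and a dotted line at the median of all genes. The medians lie between -0.11 for the feedback inhibitors and 0.18, and each list has genes on both sides of 0.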

How the data were processed

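Bulk aorta of 3 young and 3 aged mice was sequenced, and the authors deposited a table of gene counts, per the file headers, and a table of FPKM with the same genes. The labels' processing notes give the build mm10. The aligner, the counter and the use of strand are not given in the sources used here. Over 10844 genes with enough reads the deposited FPKM were proportional to the counts (SD of 0.00265 on the log2 scale). Counts were tested with edgeR 4.0.16 (R 4.3.3), using filterByExpr (minimum count 10, minimum total 15), TMM scaling, quasi-likelihood fitting with group as the only term and Benjamini-Hochberg adjustment over 16612 genes with a threshold of 0.05. CPM were computed on the TMM-scaled library sizes. Alternatives used DESeq2 1.42.0, limma 3.58.1 on log2(FPKM + 1) and log2(FPKM + 0.1), RLE size factors, other filters, robust fitting, no mitochondrial genes, a replicate block and left-out libraries.

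The rule for the 10 genes uses no measured value, but the genes and the lists were chosen with earlier results of these data known. Named besides the 10 genes were, from each list, the 2 genes with the highest mean FPKM and the tested gene with the smallest unadjusted p, plus the 3 closest genes in pattern for the most abundant ligand, receptor and binding protein. Xist, Dbp, Arntl, D030025P21Rik and the marker genes were named after their values were seen. Coordinates and coding sequences came from GENCODE M21 (GRCm38), in which 55154 of 55335 gene identifiers were found. The test was checked on simulated counts with known changes, and it recovered only a small part of the 2-fold changes. A gene not called here may therefore still differ. Intervals and SE come from the edgeR fit, which estimates the spread between 3 mice a group partly from all genes tested. They are not the spread of the single gene alone.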

Additional observations from a re-analysis of the deposited data

How the results depend on the processing

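None of the 10 genes was called under any alternative, and Ltbp3 was separated between the ages in every alternative that gives values per library. Those alternatives rescale the same 6 libraries or leave some out, so the separation of Ltbp3 in them is no added support. The number of all genes called by edgeR, 0, was 338 by DESeq2 and ranged from 0 to 110 with 1 library left out, the 110 without aged replicate 2. The number of the 10 genes with separated groups was 1, beside 16.5% of all genes tested. With 1 library left out it ranged from 1 to 3, beside 33% of all genes without young replicate 1 and 32.9% without aged replicate 2. It was 3 without young replicate 3 (Tgfbr1 and Ltbp1 higher, Ltbp3 lower) and 3 without aged replicate 3 (Ltbp1 higher, Ltbp3 and Ltbp4 lower). The share over all genes was not computed for those settings. Without young replicate 1 and aged replicate 2 it was 4, beside 51.5%, where fewer libraries make separation easier. At an unadjusted p under 0.05, edgeR had 923 genes higher and 800 lower, and limma on log2(FPKM + 1) had 418 and 2249. All genes had a median of -0.12 on that log2 scale (-0.19 with 0.1 added). The FPKM were used there without the TMM scaling factors, which were 1.06 to 1.11 in young and 0.886 to 0.943 in aged libraries. Test and scale changed together, so their parts were not separated. Signs turned on the FPKM scales (1 added, then 0.1 added) for Tgfb3 (-0.084 and -0.086), Ltbp1 (-0.085 and -0.086), Bgn (-0.018 and -0.018), Smad4 (-0.062 and -0.070), Smad3 (-0.011 and -0.014) and Pmepa1 (-0.096 and -0.097), all of them above the median of all genes. Without young replicate 1 and aged replicate 2 they turned for Tgfbr1 (-0.012, against 0.03 to 0.40 with 1 library left out), Tgfbr3 (0.060), Ltbp4 (0.21) and Tagln (0.048). With 1 library left out the log2 fold changes that turned ranged from -0.31 to 0.026 for Tgfbr3, -0.30 to 0.21 for Ltbp2, -0.28 to 0.079 for Ltbp4 and -0.16 to 0.062 for Tagln. The cause of these turns was not tested. Dcn without aged replicate 2 (not without young replicate 1 as well) and Eln by DESeq2 passed the threshold. Of the genes named from the lists, Skil moved to 0.40 without aged replicate 1, Eng to 0.32 and Smad4 to 0.07 without aged replicate 3, Acta2 to -0.05 and Smad3 to 0.09 without young replicate 3, and Bgn to 0.11 without aged replicate 1.

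The replicate numbers do not pair the mice by the labels, and the deviations of same-numbered libraries correlated at 0.079, 0.13 and 0.13. With the replicate block, edgeR called 0 genes of all and 0 of the 10, and Ltbp3 had a log2 fold change of -0.36. Non-overlap was computed once for FPKM, since the added constant cannot change an order. With 3 mice a group the SE of the 10 log2 fold changes were 0.15 to 0.31, which limits what could be called.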
